A study of Mus musculus with 9 samples.

Results

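Regulatory T cells (Tregs) given an orthogonal IL-2 were compared with the same kind of cells given wild-type (WT) IL-2, to ask how far the 2 cytokines differ in the transcription they set. The comparison used 3 ortho IL-2 and 3 WT IL-2 libraries, 6 of the 9 in the series. The other 3 libraries, from cells left without IL-2, gave the size of the shared response. Of 23992 gene symbols in the deposited tables, 10702 had at least 1 RPKM (reads per kilobase, scaled to library size) in at least 3 libraries and were compared.

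The cells were Foxp3-GFP+ Tregs of BALB/c mice, from spleen, carrying, by transduction, an orthogonal form of the IL-2 receptor beta chain with a human EGFR tag (hEGFR-oIL-2Rβ). All groups carried this chain, had been expanded for 48 hours on CD3/CD28 beads with 1000 IU/mL of human IL-2 (hIL-2), were selected magnetically through the tag, and spent a night without hIL-2. One group then received 2000000 IU/mL of ortho IL-2 for 4 hours, another 20000 IU/mL of WT IL-2 for 4 hours, and the third no IL-2. The doses are therefore not matched, and effects of dose and of cytokine form cannot be told apart. The labels give no age of the animals and do not say whether libraries came from separate cultures, so the spread behind each p-value is that of these samples and may be technical.

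IL-2 acts through a receptor of alpha, beta and common gamma chains, whose JAK1 and JAK3 kinases phosphorylate STAT5. Phosphorylated STAT5 binds DNA at sites of the form TTCNNNGAA and induces feedback inhibitors, survival genes and, in Tregs, the receptor's own alpha chain. An orthogonal pair consists of a cytokine and a receptor chain mutated to bind each other and, ideally, not their natural partners, so that a transferred cell can be addressed alone.

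No gene passed the test between ortho and WT IL-2. edgeR's quasi-likelihood test with Benjamini-Hochberg adjustment called 0 of 10702 genes (0% in either direction) at an adjusted p under 0.05, and the smallest adjusted p was 0.913. At an unadjusted p under 0.05 it found 153 genes (1.43%), 92 of them higher (0.860%) and 61 lower (0.570%) with ortho IL-2. DESeq2 and limma called 0 genes, with 114 and 128 at an unadjusted p under 0.05. The WT IL-2 library 1 bore on the unadjusted count, which was 2707 genes (25.3%) without it, with 0 called and a smallest adjusted p of 0.144, while without any other single library it was 60 to 280. Against no IL-2, the same test called 2688 genes up (25.1%) and 2446 down (22.9%) for WT IL-2, and 3059 up (28.6%) and 2867 down (26.8%) for ortho IL-2; both comparisons share the libraries without IL-2.

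A p that misses a threshold does not show equality, so each gene's ratio of ortho to WT IL-2 was given a 95% interval, and a gene was called bounded within a fold when its whole interval lay inside that fold in both directions. A narrow bound, from a ratio of 0.8 to its inverse, was used as well. The intervals of 7566 genes (70.7%) lay within the narrow bound, of 10002 (93.5%) within 1.5-fold and of 10388 (97.1%) within 2-fold. Their spread was estimated from all 9 libraries. Typical variation between libraries of a group (edgeR) was 5.31% without IL-2, 10.7% with WT and 10.3% with ortho IL-2. From the 6 compared libraries alone, 6903, 9857 and 10371 genes were bounded. The median difference over all genes was -0.0056 on the log2 scale, and the estimate was above 0 for 5090 genes (47.6%). The groups did not overlap for 498 genes (4.65%), 259 of them higher (2.42%) and 239 lower (2.23%) with ortho IL-2. The 314 genes not bounded within 2-fold had a median level of 1.60 CPM (read counts scaled to TMM library size), against 37.5 CPM over all genes compared. Small RNAs made up 145 of them and protein-coding genes 123, or 39.2% against 94.2% overall.

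Single libraries of the 2 groups were as near to each other as replicates were. The median absolute log2 difference between a WT and an ortho library ranged from 0.0521 to 0.189 over 9 pairs, with a median of 0.103. Within groups it ranged from 0.0651 to 0.176 over 6 pairs, with a median of 0.125. For 4 of the 6 libraries the nearest library was in the other group. The closest pair of all was WT IL-2 library 1 with ortho IL-2 library 3. Depth was 21695631 to 58182835 reads in genes in these 6 libraries, and T cell core genes (22 measured) summed to 7166 to 7656 CPM over all 9. Summed levels of B cell markers were 15.6 to 18.9 CPM and of CD8 and NK cell markers 27.5 to 36.0 CPM, with Pax5 at 0 reads in WT IL-2 library 2 and ortho IL-2 library 2.

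The receptor chains and their kinases came first among the 28 IL-2 pathway and Treg genes followed whatever their values. Il2ra encodes the alpha chain, CD25, and is itself a STAT5 target. Its level was 4843, 5131 and 5009 CPM in the WT libraries and 5040, 4890 and 4605 CPM in the ortho libraries, and the groups overlapped. The ratio of ortho to WT was 0.970 (95% interval 0.899 to 1.05), and over the cells without IL-2 the gene was 4.11-fold higher with WT and 3.98-fold higher with ortho IL-2.

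Il2rb, the beta chain, stood at 1613, 1278 and 1314 CPM with WT IL-2 and at 1554, 1362 and 1578 CPM with ortho IL-2. Its ratio was 1.07 (0.929 to 1.23). Reads of the transduced orthogonal chain and of the natural gene cannot be told apart in this row, so it does not give the ratio of the 2 receptors. Il2rg, the common gamma chain, had a ratio of 0.972 (0.908 to 1.04). Jak1 had a ratio of 0.983 (0.913 to 1.06), and Stat5b of 1.03 (0.943 to 1.12). Jak3 was the least tightly bounded of these, at 313, 192 and 221 CPM with WT and 276, 232 and 314 CPM with ortho IL-2, for a ratio of 1.13 (0.870 to 1.48). Its log2 difference was 0.18, and 0.039 to 0.41 with 1 library left out, lowest without WT IL-2 library 2 and highest without WT IL-2 library 1. Its spread within each group was wider than the difference between them. Of the 25 genes listed for the receptor and JAK/STAT5 signalling, 25 were bounded within 1.5-fold and 24 within the narrow bound, and 14 had estimates above 0.

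**Figure D1:**
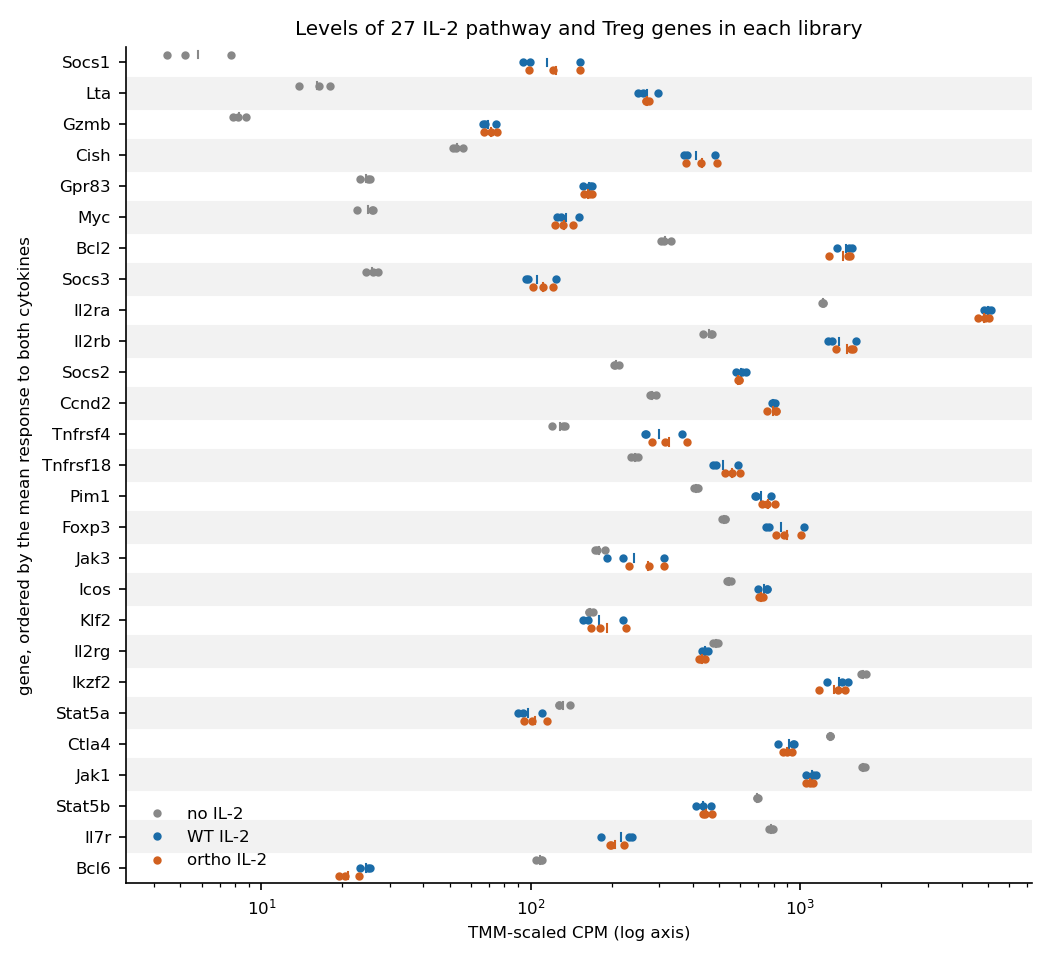
Levels of 27 of the 28 followed IL-2 pathway and Treg genes in TMM-scaled CPM (log axis), 1 point per library and a tick at each group's mean, for no IL-2 (grey), WT IL-2 (blue) and ortho IL-2 (orange). WT and ortho points overlap for 26 of the 27 genes shown, Bcl6 being the exception.

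The feedback inhibitors of cytokine signalling are among the best known STAT5 targets. Cish blocks STAT5 docking on the beta chain, and its level was 483, 372 and 380 CPM with WT IL-2 and 430, 379 and 491 CPM with ortho IL-2. The log2 difference was 0.07 (-0.17 to 0.32), at 7.73-fold and 8.14-fold over no IL-2. It was 0.21 without WT IL-2 library 1 and -0.026 without ortho IL-2 library 3, and changed sign in 4 of 23 alternative analyses. Socs2 lay within a narrow range, 582 to 630 CPM with WT and 590 to 594 CPM with ortho IL-2, for a ratio of 0.977 (0.911 to 1.05). Socs3, an inhibitor that acts on JAK kinases, had a ratio of 1.05 (0.903 to 1.22).

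Socs1, the other direct JAK inhibitor, was the only gene of the 28 not bounded within 1.5-fold. It measured 152, 94.2 and 99.5 CPM with WT IL-2 and 121, 98.8 and 153 CPM with ortho IL-2, against 4.45 to 7.71 CPM without IL-2. The high libraries were WT IL-2 library 1 and ortho IL-2 library 3, the closest pair over all genes. The ratio was 1.08 (0.745 to 1.57). The log2 difference was 0.11, but 0.37 without WT IL-2 library 1 and -0.067 without ortho IL-2 library 3, and its sign changed in 5 of 23 alternative analyses. Pim1, a survival kinase, had a ratio of 1.06 (0.961 to 1.17).

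Of the SOCS family and PIM kinases, 10 of 11 were bounded within 1.5-fold, and 6 of 11 estimates were above 0. The longer list of IL-2/STAT5-induced genes had 40 of 41 within 1.5-fold and 25 of 41 above 0. Its median difference was 0.031, whose sign changed in 5 of 23 alternative analyses, with median responses of 1.54 for WT and 1.63 for ortho IL-2 on the log2 scale.

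The shared motif can be seen at the starts of some of these genes. RefSeq promoter windows (GRCm38.p6, 250 bases before to 50 after the annotated start) matched 8427 of the genes compared, and the letters TTCNNNGAA, which read the same on both strands, were in 8.44% of them. They were in 46 of 297 matched windows (15.5%) of the genes at least 2-fold higher with the cytokines, in 9 of 136 (6.62%) of those at least 2-fold lower, and in 9.55% of the 27025 symbols of the whole table. The following 5 stretches are from genes whose ratio of ortho to WT is given here, with the motif in capitals.
Cish: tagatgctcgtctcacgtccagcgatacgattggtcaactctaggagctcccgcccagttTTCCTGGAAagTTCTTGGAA
Lta: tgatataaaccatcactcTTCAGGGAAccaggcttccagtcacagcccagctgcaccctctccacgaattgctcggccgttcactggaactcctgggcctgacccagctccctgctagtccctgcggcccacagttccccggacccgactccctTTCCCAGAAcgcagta
Socs3: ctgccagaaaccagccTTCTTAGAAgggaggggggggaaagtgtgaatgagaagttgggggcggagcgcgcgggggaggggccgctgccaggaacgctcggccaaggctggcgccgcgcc
Tnfrsf18: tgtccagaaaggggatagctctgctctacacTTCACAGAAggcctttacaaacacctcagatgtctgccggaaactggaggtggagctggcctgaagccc
Bcl6: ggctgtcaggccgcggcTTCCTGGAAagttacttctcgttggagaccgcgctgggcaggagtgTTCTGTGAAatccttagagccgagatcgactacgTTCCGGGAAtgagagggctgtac

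These stretches lie at chr9:107296599-107296678 on the plus strand (Cish), chr17:35205352-35205521 on the minus strand (Lta) and chr11:117969417-117969536 on the minus strand (Socs3). The others lie at chr4:156026192-156026291 on the plus strand (Tnfrsf18) and chr16:23981349-23981468 on the minus strand (Bcl6). Of the 2 annotated starts of Bcl6, the start used was picked by its number of motifs. The annotated spans of Lta, Socs3 and Bcl6 reach further upstream, to 35205578, 117970336 and 23988866, so these 3 stretches lie within them. Counted from the first base of the annotated start used, the Cish motifs begin at positions 1 and 12 and the Lta motifs at -152 and -16. The motif begins at -154 in Socs3 and at -99 in Tnfrsf18, and at -168, -122 and -88 in Bcl6. The motif thus stands at genes that rose and at a gene that fell. A match describes letters only, and no binding was measured here.

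Several of the 28 genes serve growth, survival and effector function. Lta, which encodes lymphotoxin alpha, measured 298, 261 and 252 CPM with WT IL-2 and 269, 268 and 276 CPM with ortho IL-2, against 13.8 to 18.0 CPM without. Its ratio was 1.00 (0.884 to 1.14), after a 17.0-fold rise with each cytokine. The ortho libraries lay inside the range of the WT libraries.

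Myc, the growth regulator, had a ratio of 0.985 (0.866 to 1.12), Bcl2, the survival factor, 0.969 (0.860 to 1.09), and the cyclin gene Ccnd2 0.998 (0.927 to 1.07). Gzmb, the cytotoxic protease granzyme B, measured 67.7, 74.7 and 66.4 CPM with WT and 75.2, 71.4 and 67.4 CPM with ortho IL-2, for a ratio of 1.02 (0.928 to 1.13). All 4 genes overlapped between the groups.

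The genes that define Tregs came next. Foxp3, the lineage factor, measured 1034, 747 and 767 CPM with WT IL-2 and 871, 816 and 1009 CPM with ortho IL-2. WT library 1 and ortho library 3 were again the highest, and the ratio was 1.06 (0.882 to 1.27). The log2 difference was 0.082, but 0.25 without WT library 1 and -0.0092 without ortho library 3, and its sign changed in 5 of 23 alternative analyses. Ikzf2, encoding Helios, had a ratio of 0.960 (0.840 to 1.10). Ctla4, an inhibitory receptor, had 0.990 (0.905 to 1.08), Icos, a costimulatory receptor, 0.971 (0.902 to 1.05), and the Treg signature receptor gene Gpr83 0.996 (0.921 to 1.08). Tnfrsf18, encoding GITR, had 1.08 (0.958 to 1.23) and Tnfrsf4, encoding OX40, 1.09 (0.881 to 1.34). Of 31 Treg identity genes, 31 were bounded within 1.5-fold and 26 within the narrow bound, and 11 had estimates above 0.

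Among the genes that IL-2 lowers, Bcl6 was the 1 of the 28 whose groups did not overlap, a share no larger than the 4.65% of all genes. It is a transcriptional repressor of follicular T cells that STAT5 is known to oppose. It measured 23.2, 24.9 and 25.2 CPM with WT IL-2 and 19.5, 20.5 and 23.1 CPM with ortho IL-2, after 105 to 110 CPM without. The groups did not overlap, but the highest ortho library, at 23.14 CPM, was barely under the lowest WT library, at 23.17 CPM. The ratio was 0.865 (0.776 to 0.963), with an unadjusted p of 0.0133 and an adjusted p of 0.913 by edgeR's quasi-likelihood test. Its estimate was below 0 under all 23 alternative analyses run, and its adjusted p was under 0.05 in none of them.

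Il7r, the IL-7 receptor chain, measured 183, 238 and 232 CPM with WT and 200, 222 and 198 CPM with ortho IL-2, for a ratio of 0.948 (0.825 to 1.09). All 25 genes listed as repressed by IL-2 were bounded within 1.5-fold, with 10 above 0 and a median of -0.027. In all, 22 of the 28 followed genes were bounded within the narrow bound, 27 within 1.5-fold and 28 within 2-fold, against 70.7%, 93.5% and 97.1% of all genes compared. Of the 28 estimates, 14 were above 0.

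**Figure D2:**
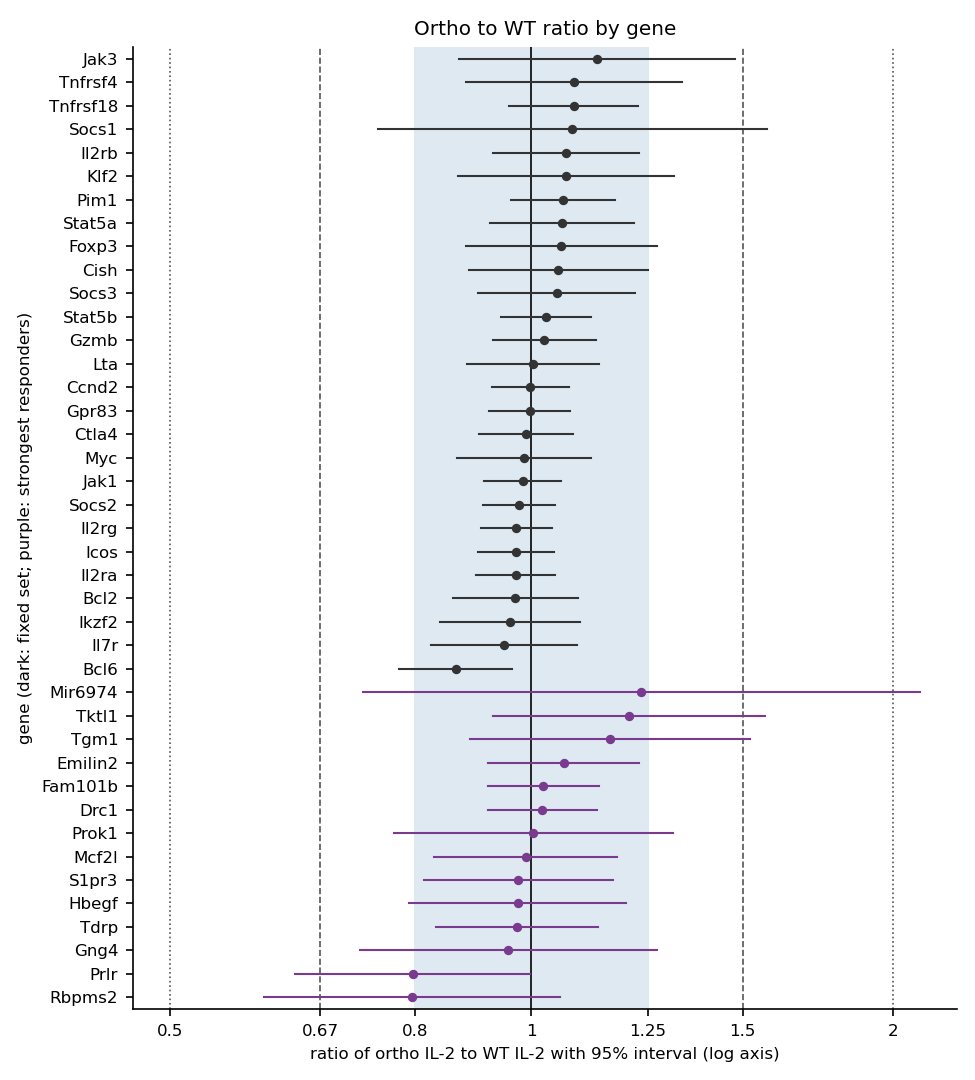
Ratio of ortho IL-2 to WT IL-2 with its 95% interval (log axis) for 27 of the 28 followed genes (dark) and for the strongest responders to both cytokines that had at least 100 reads in the 6 libraries (purple). The shaded band marks the narrow bound, the dashed lines 1.5-fold and the dotted lines 2-fold; among the dark genes the interval of Socs1 crosses 1.5-fold and that of Bcl6 lies below 1.

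The 10 genes that rose most and the 10 that fell most with the mean of both cytokines were also compared. Among those that rose, Emilin2, an extracellular matrix gene, measured 137, 122 and 119 CPM with WT and 138, 129 and 134 CPM with ortho IL-2, for a ratio of 1.06 (0.920 to 1.23). Hbegf, encoding a growth factor of the EGF family, had a ratio of 0.974 (0.791 to 1.20). Tgm1, encoding a transglutaminase, measured 4.95, 4.57 and 4.51 CPM with WT and 5.73, 5.57 and 5.08 CPM with ortho IL-2, and its groups did not overlap. Its ratio was 1.16 (0.889 to 1.52). Of the 10, 7 were bounded within 1.5-fold.

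Among the 10 that fell, Fam101b measured 11.5, 11.9 and 13.0 CPM with WT and 11.9, 13.2 and 12.3 CPM with ortho IL-2, for a ratio of 1.02 (0.920 to 1.14). Prlr, the prolactin receptor, measured 17.0, 15.7 and 22.5 CPM with WT and 17.7, 13.2 and 12.9 CPM with ortho IL-2. Its ratio was 0.796 (0.635 to 0.998), at an unadjusted p of 0.0481 and an adjusted p of 0.913 by edgeR. Scarna10 and Mir7675 had 18 and 29 reads over the 6 libraries, too few for a ratio. Of these 10, 5 were bounded within 1.5-fold.

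Sorting genes by the size of their shared response showed where the cytokines could be told to match and where they could not. Classes were taken from the mean of both cytokines against no IL-2. With 3 libraries per group this contrast is orthogonal to the one between the cytokines. A deviation of a single WT or ortho library still enters both contrasts, so they are not fully independent. The 389 genes at least 2-fold higher had median log2 responses of 1.43 to WT and 1.46 to ortho IL-2. The estimate was above 0 for 225 of them (57.8%), with a median of 0.019, and 346 were bounded within 1.5-fold. For 359 of these genes the whole interval of the difference lay within 50% of that gene's response, and for 270 within 25%.

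Genes higher by less than 2-fold numbered 2769, of which 63.6% were above 0, with a median of 0.028. Genes lower by less than 2-fold numbered 2830, of which 30.1% were above 0, with a median of -0.038. The 4527 genes with no called response had 48.7% above 0 and a median of -0.0033. The medians thus leaned away from the cells without IL-2 on both sides. Their sign changed in 7 of 23 alternative analyses for genes at least 2-fold higher, and in 3 of 23 for each of the classes under 2-fold. With correction for GC content the median of genes at least 2-fold higher was -0.0049. Those of genes higher and lower by under 2-fold were then -0.00036 and -0.0032. The correction takes out any difference that runs with GC content, whatever its source. GC content itself ran with the response, its median being higher in genes at least 2-fold higher than in genes at least 2-fold lower. The corrected medians therefore cannot separate GC content from response, and the source of the lean was not tested. No direction is drawn from the class medians, corrected or not. Except for the genes at least 2-fold lower, the uncorrected class medians were also smaller in size than the median absolute difference between any 2 of the 6 libraries. These are unlike measures, signed between groups and absolute between single libraries, so the comparison does not show that the medians are negligible.

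**Figure D3:**
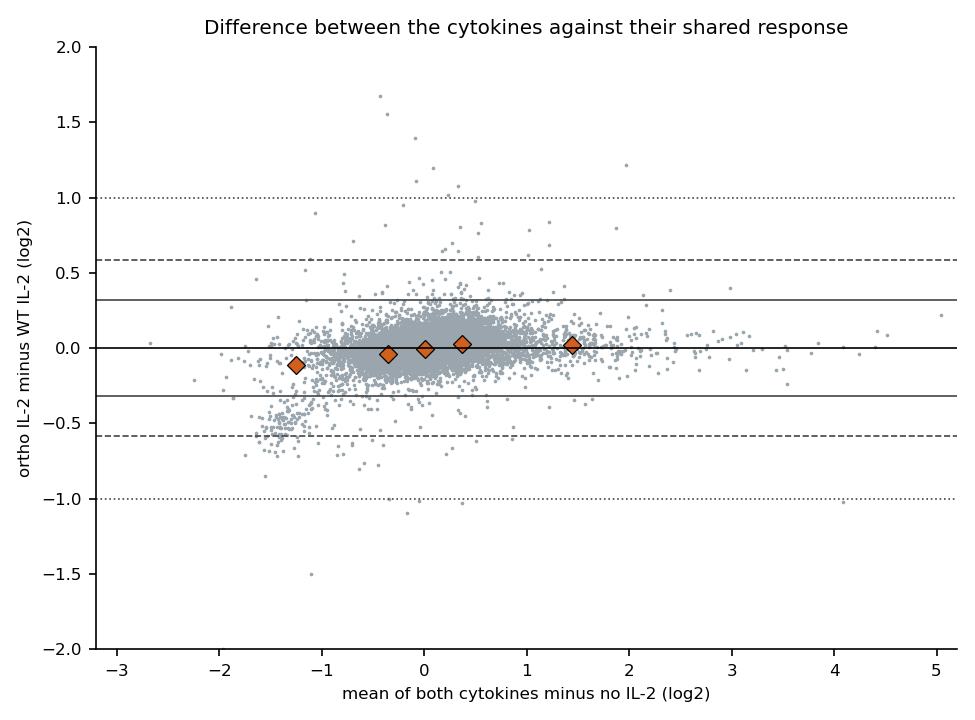
Ortho minus WT IL-2 (log2, vertical axis) against the mean of both cytokines minus no IL-2 (log2, horizontal axis) for 10702 genes, 4 of which lie outside the axes. Solid, dashed and dotted lines mark the narrow bound, 1.5-fold and 2-fold, and diamonds mark the medians of the 5 response classes; a separate cloud of genes lies below the solid line at responses between -1 and -2.

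The 187 genes at least 2-fold lower were the class with the largest median difference. Their median responses were -1.14 for WT and -1.36 for ortho IL-2, the median difference was -0.12, and 48 (25.7%) had estimates above 0. Only 98 of the 187 were bounded within 1.5-fold, against 346 of 389 in the higher class. These genes divided by their spread between replicates, measured as the SD of log2 CPM within the WT and ortho groups, at a threshold of 0.4 chosen after the values were seen.

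With a spread under 0.4, 117 of the genes had a median difference of -0.040, 47 estimates above 0 and 98 bounded within 1.5-fold. Their median log2 levels against no IL-2 were -1.23, -1.20 and -1.11 in the WT libraries and -1.21, -1.20 and -1.22 in the ortho libraries. Genes of T cell trafficking, survival and signalling were among them. Itga4, the integrin alpha-4 chain, measured 220, 246 and 265 CPM with WT and 238, 247 and 215 CPM with ortho IL-2, for a ratio of 0.957 (0.854 to 1.07). Bcl2l11, encoding the death factor BIM, had a ratio of 1.01 (0.943 to 1.09), Igf1r, a growth factor receptor, 0.995 (0.934 to 1.06), and Pdcd1, encoding PD-1, 1.04 (0.940 to 1.14). These genes were named after their values were seen.

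With a spread of at least 0.4, the other 70 genes had a median difference of -0.45 and 1 estimate above 0. None was bounded within 1.5-fold, as was the case for all 329 such genes, because the spread that split the genes also sets the width of the interval. Genes known from other tissues were among them, also named after their values were seen. Fgf9, a growth factor of embryonic development, measured 48.9, 28.1 and 69.4 CPM with WT and 55.7, 31.0 and 15.3 CPM with ortho IL-2. Chrna1, a muscle acetylcholine receptor subunit, measured 8.31, 4.42 and 14.9 CPM with WT and 10.8, 5.47 and 3.43 CPM with ortho IL-2. For both genes the libraries of a group differed by more than the group means did, which the choice by spread itself favours. Of the 70 genes, 47 were protein coding and 18 long noncoding.

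The levels of these 70 genes moved with the share of reads that fell outside the transcripts taken for the genes. Their median log2 level against no IL-2 was -2.38 in ortho library 3, whose share was 25.7%, and -1.76 in WT library 2, at 29.1%. It was -1.67 in ortho library 2, at 29.5%, and -1.05 in WT library 1, at 31.1%. It was -0.76 in ortho library 1, at 33.0%, and -0.53 in WT library 3, at 34.9%. The order by level and the order by share were thus the same over the 6 libraries, whichever cytokine had been given. The order did not extend to the libraries without IL-2, where these genes stood at 0.41, -0.073 and -0.35 at shares of 43.3%, 38.9% and 39.3%. As a group those libraries had a higher share, 40.5% ± 2.43 (SD, n = 3), so the fall that placed the 70 genes in this class also runs with the share, and its part in that fall was not tested. With that share as a covariate the median difference of the 70 genes was -0.022 in place of -0.45, and that of the whole class -0.019 in place of -0.12. Genes of like spread outside the class moved as well. The median went from -0.26 to 0.024 for 223 genes with no called response and from -0.27 to 0.038 for 20 genes lower by under 2-fold. It went from 0.17 to 0.098 for 10 genes at least 2-fold higher, and from 0.19 to 0.052 for 6 genes higher by under 2-fold. In these higher classes it thus shrank but stayed above 0. For all 329 genes with a spread of at least 0.4, which include the 70, it went from -0.29 to 0.014. Over 3 libraries each, the share was 31.7% ± 2.96 for WT IL-2 and 29.4% ± 3.64 for ortho IL-2 (SD). What sets it was not tested.

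**Figure D4:**
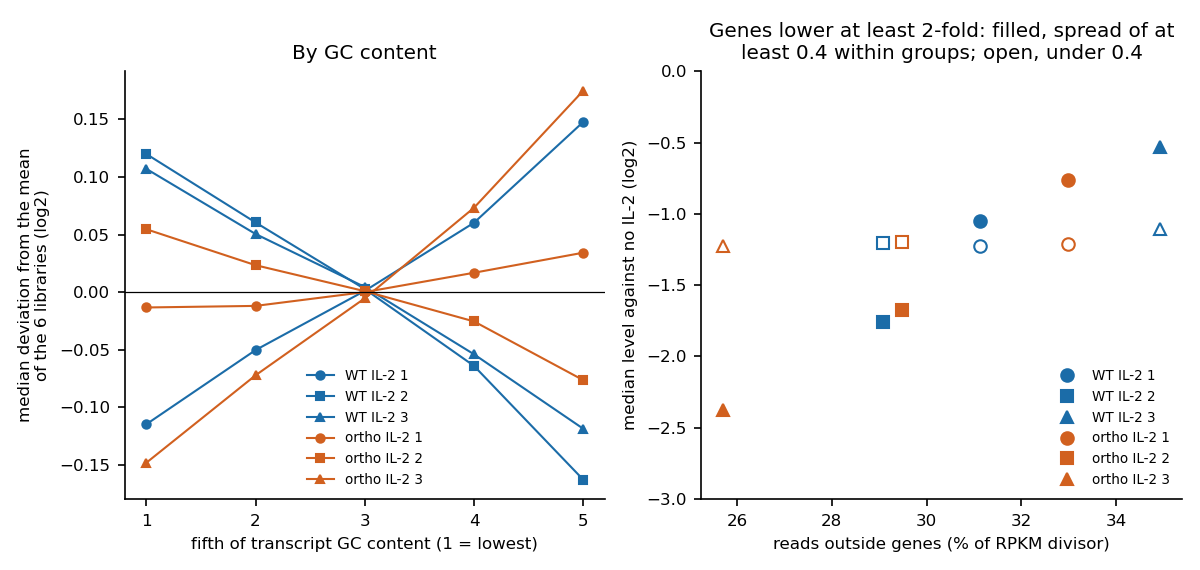
Left, median log2 deviation of each library from the mean of the 6 in 5 equal bins of transcript GC content. Right, median log2 level against no IL-2 of the genes at least 2-fold lower, for the 70 genes with a spread of at least 0.4 within groups (filled) and the 117 with less (open), against the share of reads outside genes; filled points range from -2.38 to -0.53 and open points from -1.23 to -1.11.

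Among lists of genes that work together, those of glycolysis showed the most even direction. All 28 were bounded within 1.5-fold and 24 within the narrow bound, and none was called. The estimate was above 0 for 26 of 28, against 47.6% of all genes, with a median difference of 0.079. Their median responses were 0.23 for WT and 0.33 for ortho IL-2. Groups did not overlap for 6 of 28, all higher with ortho IL-2, where 2.42% of all genes did so. Genes of like GC content are a closer background, since the median of the list was 53.6%. Of the 2131 genes at 51.9% to 55.7% GC, 74.1% had estimates above 0. For 107 of those genes the groups did not overlap, with ortho IL-2 higher.

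Gapdh, a glycolytic dehydrogenase, measured 1892, 1748 and 1631 CPM with WT and 2001, 1935 and 1907 CPM with ortho IL-2. Each ortho library was above each WT library. The ratio was 1.11 (1.01 to 1.21), at an unadjusted p of 0.0295 and an adjusted p of 0.913 by edgeR, and its reads can be shared with pseudogene copies. Pkm, encoding a pyruvate kinase, measured 2357, 2225 and 2213 CPM with WT and 2549, 2436 and 2408 CPM with ortho IL-2, for a ratio of 1.09 (1.01 to 1.17). Its log2 difference of 0.12 was 0.039 with correction for GC content and changed sign in 2 of 23 alternatives. Aldoc, an aldolase gene, had a ratio of 1.14 (1.02 to 1.27), and Tpi1, encoding triosephosphate isomerase, 1.09 (1.01 to 1.19). Slc16a1, a lactate transporter gene, and Bpgm, encoding a bisphosphoglycerate mutase, were the 2 below 0 (Tpi1 and these 2 were named after their values were seen), at ratios of 0.952 (0.854 to 1.06) and 0.987 (0.852 to 1.14). The median of the list was above 0 under all 23 alternative analyses, between 0.030 and 0.14. It was 0.050 with correction for GC content, which for these genes had a median of 53.6%, above that of all genes.

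Genes of cytokines and effector molecules had estimates above 0 for 18 of 22, with a median of 0.090 that was above 0 under all 23 alternatives and 0.033 with correction for GC content. The list had a median GC content of 52.9%, and of all genes at 51.9% to 55.7% GC, 74.1% had estimates above 0. None of the list was called, and for each of the 22 the groups overlapped. Tnf measured 54.6, 48.8 and 47.9 CPM with WT and 53.4, 54.3 and 56.4 CPM with ortho IL-2, for a ratio of 1.08 (0.981 to 1.20). Ifng, encoding interferon gamma, was at 1.78, 2.57 and 2.29 CPM with WT and 3.46, 2.97 and 2.20 CPM with ortho IL-2, and was the 1 gene of the list not bounded within 1.5-fold (ratio 1.29, 0.915 to 1.82).

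For oxidative phosphorylation, 57 of 76 genes were above 0 and 73 were bounded within 1.5-fold, with a median of 0.045. The median was 0.026 with correction for GC content, 0.016 with reads outside genes as a covariate, and 0.0084 without ortho IL-2 library 3 to 0.080 without ortho IL-2 library 1. Ndufa3, a complex I subunit gene, had a ratio of 1.21 (1.04 to 1.41) at an unadjusted p of 0.0176. In the TNF receptor superfamily 12 of 17 were above 0 and 16 were bounded within 1.5-fold. Immediate early genes had 15 of 20 above 0 with a median of 0.073, which was 0.0022 with correction for GC content and changed sign in 1 of 23 alternatives. Median GC content was 53.7% for the TNF receptor superfamily and 54.5% for immediate early genes. Of all genes at 51.9% to 55.7% GC, 74.1% were above 0. For oxidative phosphorylation it was 51.7%, and of all genes at 48.1% to 51.9% GC, 45.3% were above 0.

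Other lists leaned below 0. Genes of G2/M and mitosis had 20 of 66 above 0, a median of -0.047 (0.015 on unscaled RPKM) and all 66 bounded within 1.5-fold. Cdkn3, a phosphatase gene of the cell cycle, measured 16.5, 17.7 and 15.2 CPM with WT and 13.9, 14.7 and 15.0 CPM with ortho IL-2. Its groups did not overlap, and the ratio was 0.881 (0.778 to 0.997). With correction for GC content the list's median was -0.018. Unfolded protein response genes had 8 of 29 above 0, costimulatory and inhibitory receptors 8 of 22, and MYC targets with ribosome biogenesis genes 27 of 78, and the medians of these 3 lists were -0.026, -0.044 and -0.021. The first was -0.0039 and the last -0.027 with correction for GC content, and each changed sign in 2 of 23 alternatives. The median of the costimulatory and inhibitory receptors changed sign in 8 of 23 alternatives and was 0.016 with correction for GC content. Median GC content was 47.3% for G2/M and mitosis genes and 44.7% for these receptors. Of all genes at 44.1% to 48.1% GC, 21.1% had estimates above 0, so neither list leaned further below 0 than that. It was 48.9% for unfolded protein response genes and 50.3% for MYC targets. Of all genes at 48.1% to 51.9% GC, 45.3% were above 0.

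**Figure D5:**
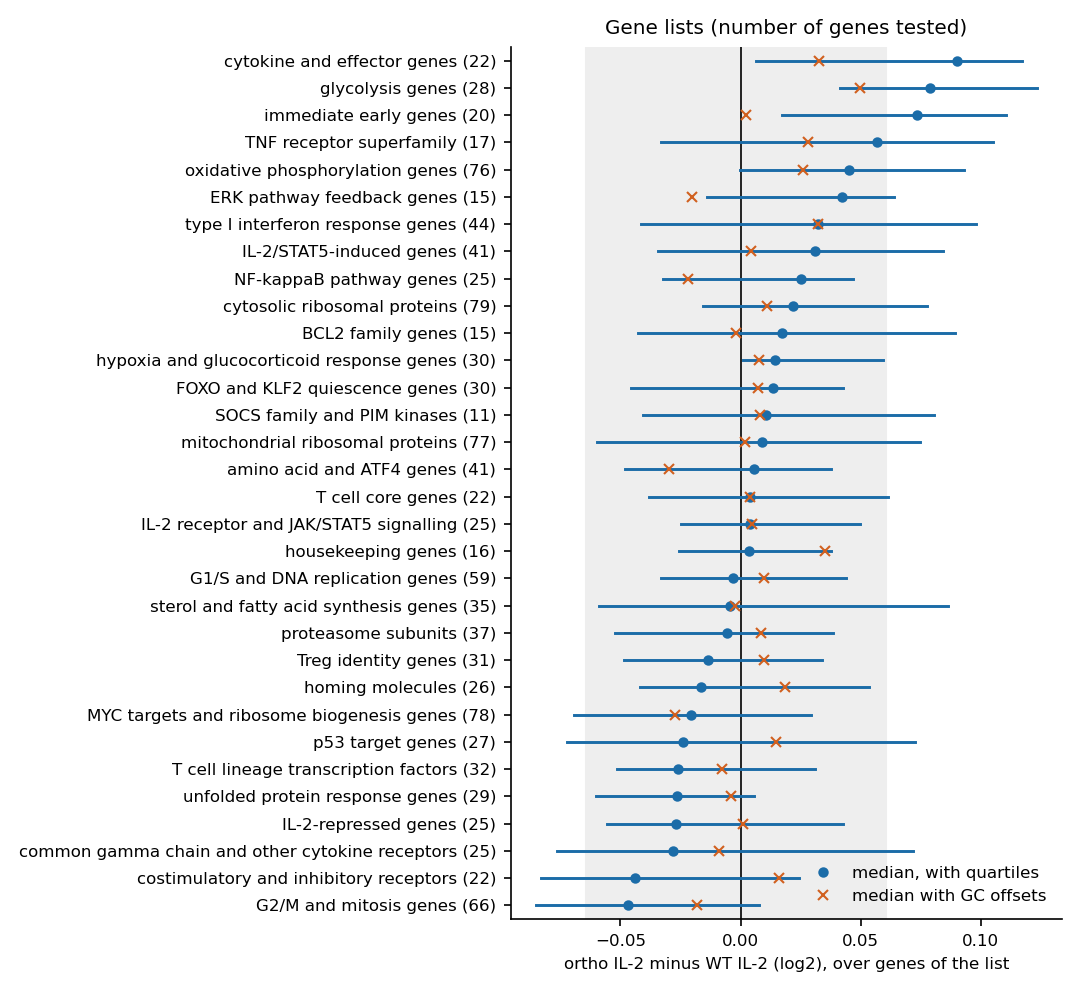
Median ortho minus WT IL-2 difference (log2) of each gene list with its quartiles (blue) and the same median with correction for transcript GC content (orange crosses); the grey band spans the quartiles of all genes compared and numbers of genes are in brackets. The medians of glycolysis (0.079) and of cytokine and effector genes (0.090) lie to the right, that of G2/M genes (-0.047) to the left.

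The direction of small differences went with GC content. Over all genes, 8.77% of estimates were above 0 in the lowest of 5 equal bins of GC content, with a median of -0.079, and 88.5% in the highest bin, with a median of 0.088. The same tilt, highest minus lowest bin, was 0.26, -0.28 and -0.23 in the WT libraries and 0.048, -0.13 and 0.32 in the ortho libraries. Replicates of a group thus differed in it by more than the groups. The largest upward tilts were in WT library 1 and ortho library 3, the libraries in which Socs1 and Foxp3, transcripts of 58.8% and 55.0% GC, were highest. With the tilt removed by offsets, 9060 genes were bounded within the narrow bound in place of 7566, 10138 within 1.5-fold, and 0 were called. The offsets also take out any difference between the cytokines that runs with GC content, so corrected values cannot separate the 2. With these offsets the log2 difference was 0.026 in place of 0.11 for Socs1, 0.0082 in place of 0.074 for Cish, 0.079 in place of 0.18 for Jak3 and 0.033 in place of 0.082 for Foxp3. It was -0.22 in place of -0.21 for Bcl6 and 0.75 in place of 0.76 for Gzmg.

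The genes with the smallest p-values, picked after their values were seen, were led by granzyme genes of chromosome 14. Gzmg measured 5.31, 3.72 and 3.68 CPM with WT and 7.08, 6.54 and 7.92 CPM with ortho IL-2, for a ratio of 1.70 (1.254 to 2.29), an unadjusted p of 0.00294 and an adjusted p of 0.913 by edgeR. Gzmd measured 7.27, 5.48 and 4.25 CPM with WT and 9.27, 8.95 and 7.80 CPM with ortho IL-2, for a ratio of 1.52 (1.17 to 1.98). Neither group pair overlapped. The other granzymes compared had ratios of 1.38 (0.983 to 1.93) for Gzme, 1.10 (0.897 to 1.35) for Gzmc, 1.02 for Gzmb and 0.977 (0.790 to 1.21) for Gzma.

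Gzmd (chr14:56129556-56132603), Gzme (chr14:56117619-56120625) and Gzmg (chr14:56156581-56159579) are neighbouring copies of like sequence in GRCm38, and how reads shared by them were assigned is not given in the sources used here, so their values are not independent of each other. Gzmg had a mean of 3.77 CPM without IL-2, 4.24 with WT and 7.18 with ortho IL-2. Against no IL-2 its edgeR adjusted p was 0.589 for WT and 0.00378 for ortho IL-2. Both values come from the libraries by which Gzmg was picked. That they fall on either side of the threshold is not a test of the difference between the cytokines. For that difference the edgeR adjusted p was 0.913. On the lower side, Elp4, an elongator subunit gene, had a ratio of 0.824 (0.721 to 0.941), Hoxb4, a homeobox gene, 0.755 (0.622 to 0.916) and Tcf4, an E protein gene, 0.840 (0.741 to 0.952).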

How the data were processed

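Messenger RNA was sequenced in 9 libraries, 3 from each of the groups described above. Per the file headers, the deposited tables hold raw read counts and RPKM values per RefSeq transcript. The submitters' processing notes list bedtools 2.25.0, SAMtools 0.1.8, edgeR, TopHat2 and Bowtie2, with build mm10. The use of strand is not given in the sources used here, so overlapping genes cannot be told apart.

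Each symbol was represented by its transcript of highest summed reads. Counts were TMM-scaled and fitted with edgeR 4.0.16 (R 4.3.3) with group means over all 9 libraries, two-sided, with Benjamini-Hochberg adjustment over 10702 genes at a threshold of 0.05. The 95% intervals used the fit's moderated spread. Levels are CPM, with a floor of 3 reads at 0.0516 to 0.138 CPM in the 6 libraries, for counting error only. Reads outside genes are the part of each library's RPKM divisor not counted in the transcripts taken. GC content was that of the transcript (GENCODE M21, GRCm38).

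Named genes were a fixed set of 28, the 10 largest rises and falls in the mean of both cytokines, and up to 3 members with the smallest p per list of 36 lists (1169 symbols, 1019 tested). One of the 28 counts in totals and is not reported here by name. Members, lists and rules were chosen with earlier results of these data known. No gene was called, so that part of the naming rule gave 0 genes. Alternatives used DESeq2 1.42.0, limma 3.58.1 on log2(RPKM + 1), other filters, transcripts and samples, GC offsets and covariates. The fit was also run on simulated counts that had the same spread in all groups and no GC tilt. It was thus not tested under the unequal spread and the tilts of these libraries.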

Additional observations from a re-analysis of the deposited data

How the results depend on the processing

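The count of called genes was 0 in both directions under each of 23 alternatives: 17 planned (size factors of DESeq2, DESeq2, no filter with 19806 genes, an RPKM of at least 5, the 6 libraries alone, the longest transcript, limma on log2(RPKM + 1), reads outside genes as a covariate, GC offsets, the replicate block, both of these, and each replicate left out) and 6 chosen after seeing the data (GC offsets with each replicate left out). Unadjusted counts ranged from 60 to 280 except with no filter (357), and without WT IL-2 replicate 1 (2707, or 864 with GC offsets as well). Genes bounded numbered 6197 to 9060 within the narrow bound, 9602 to 10216 within 1.5-fold and 10285 to 10527 within 2-fold under the alternatives that kept the same filter, with 8114, 10156 and 10440 by a pair of one-sided tests with adjustment. They numbered 6149, 7344 and 7474 of 7552 genes at an RPKM of at least 5, and 7671, 10652 and 12027 of 19806 with no filter. Without 1 replicate at a time they numbered 6197 to 7774, 9602 to 9964 and 10285 to 10382.

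The median of the genes at least 2-fold higher changed sign in 7 of 23 alternatives, that of genes at least 2-fold lower in 1. On unscaled RPKM the median of all genes was 0.049, and the classes higher by at least and by under 2-fold, not called and lower by under 2-fold had medians of 0.070, 0.080, 0.050 and 0.023. With no filter the class not called had 0.014. At spread thresholds of 0.3 and 0.5 in place of 0.4, 77 and 62 of the genes at least 2-fold lower were above it, with medians of -0.44 and -0.47.

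Deviations of same-numbered WT and ortho libraries correlated at -0.039, 0.42 and -0.66. With the same-numbered libraries without IL-2, the values were -0.052, -0.047 and -0.32 for WT and 0.44, -0.049 and 0.31 for ortho IL-2. Each library's deviation also holds its GC tilt, so these values cannot show whether replicate numbers pair the samples. With the replicate block 0 genes were called, 115 had an unadjusted p under 0.05, and 7365, 9964 and 10378 were bounded within the narrow bound, 1.5-fold and 2-fold. Genes not bounded within 2-fold had a median of 342 reads over the 6 libraries, against 8358 for all, and of the 329 genes with a spread of at least 0.4 between replicates 73 were bounded within 2-fold. The parts of depth and of replicate spread in the wide intervals were not separated.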
